A study of Mus musculus with 6 samples.

Results

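The genes described here encode the machinery that releases calcium from the endoplasmic reticulum, refills that store and admits calcium across the plasma membrane when the store runs low: 3 inositol trisphosphate (IP3) receptors, 2 STIM proteins, 3 ORAI channel subunits and 2 endoplasmic reticulum calcium pumps. They were taken by symbol from the deposited gene table, and all 10 had a row among 55414 genes and passed the filter on low counts that left 17739 genes for testing. The RNA came from microglia, macrophages that reside in the brain, of 10-month-old C57BL/6 mice. There were 3 libraries labelled wild type (WT) and 3 labelled Selk-/-, the genotype name of a Selenok knockout, and the labels name no other allele, driver or cell type restriction. No label ties a library to a single animal, so the p-values below reflect variation among libraries, some of which may be technical, and replicate 3 of each group carries 2 numbers in its title.

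When a receptor activates phospholipase C, the IP3 it makes opens IP3 receptors and the store empties. STIM proteins sense the lower store calcium and open ORAI channels, a process called store-operated calcium entry, and SERCA pumps return calcium to the store. In microglia these calcium signals accompany the response to nucleotides and the uptake of particles. SELENOK, the product of Selenok, is an endoplasmic reticulum membrane selenoprotein that has been described with the palmitoyltransferase DHHC6 as a modifier of IP3 receptor protein in immune cells. Transcript counts do not measure palmitoylation, protein amount or calcium flux.

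The 3 ORAI genes and Stim1 were each lower in every library labelled Selk-/- than in any WT library. Of all 17739 genes tested, 13.7% had that pattern. The promoters of these 4 genes are shown here because these genes are the members with it. Each sequence runs 5′ to 3′ on the strand of its gene, from 250 bases before to 50 bases after the start in RefSeq on build GRCm38.p6, and capitals mark matches to GGGCGG (the GC box), CCAAT (the CCAAT box) or CACGTG (a palindromic E-box) on either strand.
Orai1 (chr5:123014824-123015123, plus strand): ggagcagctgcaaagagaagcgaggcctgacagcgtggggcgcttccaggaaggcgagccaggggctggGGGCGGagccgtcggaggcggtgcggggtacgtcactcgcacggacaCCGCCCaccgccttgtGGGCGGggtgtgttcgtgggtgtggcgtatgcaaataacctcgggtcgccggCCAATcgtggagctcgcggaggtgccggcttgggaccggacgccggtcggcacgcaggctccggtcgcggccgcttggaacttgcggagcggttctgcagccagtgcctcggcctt
Orai2 (chr5:136170607-136170906, minus strand): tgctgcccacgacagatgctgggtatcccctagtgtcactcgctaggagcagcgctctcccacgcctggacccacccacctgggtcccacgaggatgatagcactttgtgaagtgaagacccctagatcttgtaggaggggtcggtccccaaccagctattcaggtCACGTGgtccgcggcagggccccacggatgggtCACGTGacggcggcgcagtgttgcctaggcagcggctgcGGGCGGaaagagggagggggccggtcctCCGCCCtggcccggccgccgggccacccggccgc
Orai3 (chr7:127769565-127769864, plus strand): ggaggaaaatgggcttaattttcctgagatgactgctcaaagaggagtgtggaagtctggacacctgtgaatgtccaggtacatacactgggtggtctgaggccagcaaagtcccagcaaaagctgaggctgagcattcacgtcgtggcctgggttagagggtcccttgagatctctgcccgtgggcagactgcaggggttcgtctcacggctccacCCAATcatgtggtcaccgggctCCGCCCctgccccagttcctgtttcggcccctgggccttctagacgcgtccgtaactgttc
Stim1 (chr7:102267569-102267868, plus strand): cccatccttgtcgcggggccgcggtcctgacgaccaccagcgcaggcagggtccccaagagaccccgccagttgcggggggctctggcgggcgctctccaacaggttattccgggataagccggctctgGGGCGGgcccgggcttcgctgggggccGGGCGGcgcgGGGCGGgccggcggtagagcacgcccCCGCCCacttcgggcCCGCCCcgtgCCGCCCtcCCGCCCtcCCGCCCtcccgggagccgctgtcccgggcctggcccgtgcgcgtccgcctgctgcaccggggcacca

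Promoters of 8 members were found in that table, and all 8 held GGGCGG, which 35.7% of 32851 mouse promoter windows of the same length hold. Orai1 had 3 matches, Orai2 had 2, Orai3 had 1 and Stim1 had 8. CCAAT was present in 4 of the 8, Orai1 and Orai3 among them, against 37.4% of all windows. CACGTG was present in 2 of the 8: Orai2 had 2 matches and Itpr3 had 1, against 7.15% of all windows. TATAAA, TGACGTCA (the cAMP response element) and GAGGAAGT (a core bound by the myeloid factor PU.1) were found in 0 of the 8 windows, against 13.6%, 1.79% and 3.202% of all windows. Matches were counted at every position on both strands, so they may overlap. All 8 windows were richer in G and C than the median window, at 57.7% (Orai3) to 78.7% (Stim1) against 52.7%. The shares over all windows are not matched for base composition, so they do not set the motif content of the members apart from it. Orai3 was nearest the median of all windows, with 11 CG dinucleotides in its 300 bases against 7. Orai1 had 36, Orai2 24 and Stim1 38. A match is a description of these letters and not of a bound factor.

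Counts per library totalled 21112082 to 28123871, and each member had at least 846 counts in every library. Selenok itself was at 112, 125 and 120 CPM (counts scaled to a common library total) in WT and 112, 108 and 109 CPM under the Selk-/- label, an edgeR log2 fold change of -0.12 (adjusted p = 0.381), so the gene total does not check the labels. Replicates 2 and 3 labelled Selk-/- held 46.0 and 54.9 CPM of small nucleolar RNA (snoRNA), against 318 to 327 CPM in the other 4 libraries, and in them the slope of log2 CPM deviations on log2 gene length was 0.032 and 0.046, against -0.036 to -0.0075 in the others. All 10 microglia markers were detected in every library, at summed values of 24600 to 25105 CPM in WT and 20310 to 21374 CPM under the Selk-/- label. In these bulk samples, fewer cells of a type and less RNA per cell cannot be told apart.

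Levels per kilobase (deposited FPKM, fragments per kilobase, scaled to library size) ranked the endoplasmic reticulum pump Atp2a2 first and the store sensor Stim2 last. The lengths behind these FPKM are not known here, and they were not the joined exon lengths of GENCODE M21 for every gene. Itpr1, with 18319 such bases, averaged 90.4 CPM and 8.62 FPKM, and Stim1, with 10371, averaged 63.6 CPM and 14.8 FPKM. The order therefore depends on the lengths used. Atp2a2, which encodes SERCA2, the pump found in most cell types, ranged from 47.2 to 55.04 FPKM over the 6 libraries. No other member's range reached it, and its mean lay above 93.4% of the genes tested. The pore subunit genes Orai1 (18.9 to 26.8 FPKM) and Orai3 (17.5 to 23.1 FPKM) and the second pump gene Atp2a3 (16.6 to 22.9 FPKM) followed with overlapping ranges. Stim1 (13.6 to 16.03 FPKM) and Orai2 (11.9 to 15.5 FPKM) also overlapped, although Stim1 was the higher of the pair in 6 of 6 libraries. The IP3 receptor genes were lower on this scale: Itpr2 at 9.46 to 11.8 FPKM, Itpr3 at 6.23 to 9.42 FPKM and Itpr1 at 7.86 to 9.67 FPKM, of which the last 2 did not differ beyond their spread. Stim2 closed the order at 6.49 to 7.498 FPKM. All 3 receptor genes and both STIM genes were thus transcribed in these preparations, with no single dominant IP3 receptor in FPKM.

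**Figure D1:**
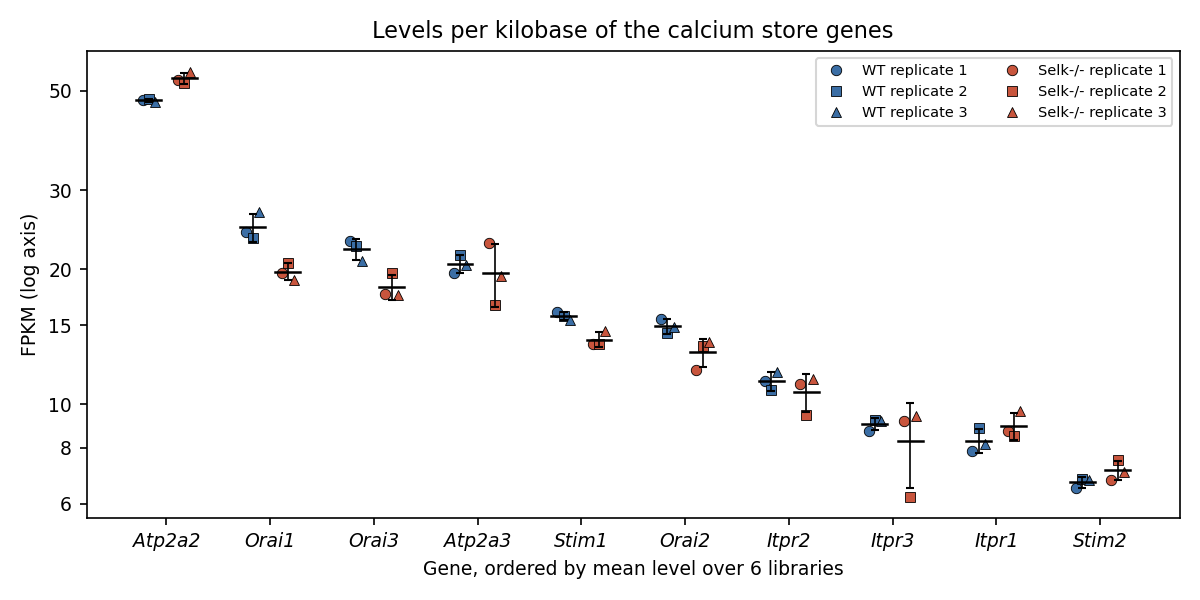
FPKM (log axis) of the 10 genes in each of the 6 libraries, WT in blue and the libraries labelled Selk-/- in red, with the mean and SD of each group (n = 3). Atp2a2 sits alone at the top between 47.2 and 55.04 FPKM, and the 3 IP3 receptor genes and Stim2 lie below 12 FPKM.

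ORAI subunits form the pore of store-operated entry; ORAI1 carries most of this current in many immune cells, and ORAI2 and ORAI3 are related subunits that can join it. Orai1 (ENSMUSG00000049686, chromosome 5, 123153137 to 123168519, plus strand, in the deposited table, which names no build) had 48.4, 49.6 and 57.3 CPM in WT. It had 42.5, 44.8 and 40.3 CPM in replicates 1 to 3 labelled Selk-/-. The groups did not overlap, and WT replicate 3 was the highest library. The means were 51.8 ± 4.82 and 42.5 ± 2.25 CPM (SD, n = 3 each), 0.822 of the WT level, with a log2 fold change of -0.28 (SE 0.087, 95% interval -0.48 to -0.08). This missed the threshold in edgeR over all genes (adjusted p = 0.159; unadjusted p = 0.0119) and in DESeq2 (adjusted p = 0.0957). Without both libraries titled with 2 numbers, one of them the high WT library, the log2 fold change was -0.15 (edgeR adjusted p = 0.432).

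Orai3 (ENSMUSG00000043964, chromosome 7, 127368987 to 127374322, plus strand) had 50.8, 52.7 and 49.1 CPM in WT and 42.1, 46.5 and 41.3 CPM under the Selk-/- label. Again the groups did not overlap, with replicate 2 labelled Selk-/- the closest to WT. Its log2 fold change of -0.23 (SE 0.074, 95% interval -0.40 to -0.06) missed the threshold (edgeR adjusted p = 0.166, unadjusted p = 0.0141). The means were 50.9 ± 1.83 and 43.3 ± 2.82 CPM (SD, n = 3 each).

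Orai2 (ENSMUSG00000039747, chromosome 5, 136176313 to 136199567, minus strand) had 65.3, 63.6 and 65.5 CPM in WT and 53.2, 59.6 and 60.1 CPM under the Selk-/- label. Here replicate 1 labelled Selk-/- was the lowest and the WT libraries lay within 2 CPM of each other. In log2 the difference was -0.17 (SE 0.0702, 95% interval -0.33 to -0.01; edgeR adjusted p = 0.249, unadjusted p = 0.0444). It was -0.10 without replicate 1 labelled Selk-/- (edgeR adjusted p = 0.492) and -0.28 in a fit blocked on the snoRNA split (edgeR adjusted p = 0.396), which rests on that replicate.

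Shares within the ORAI genes overlapped between groups. Orai1 held 40.1 ± 2.47% of the summed ORAI FPKM in WT and 38.7 ± 1.13% under the Selk-/- label, Orai3 35.8 ± 2.17% and 35.7 ± 0.843%, and Orai2 24.1 ± 0.512% and 25.6 ± 1.63% (SD, n = 3 each). Their sum was 62.8, 60.4 and 62.5 FPKM in WT and 49.2, 53.7 and 50.1 FPKM under the Selk-/- label. Replicate 1 labelled Selk-/- gave the lowest of these sums. The part of the snoRNA difference between libraries in them was not tested.

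**Figure D2:**
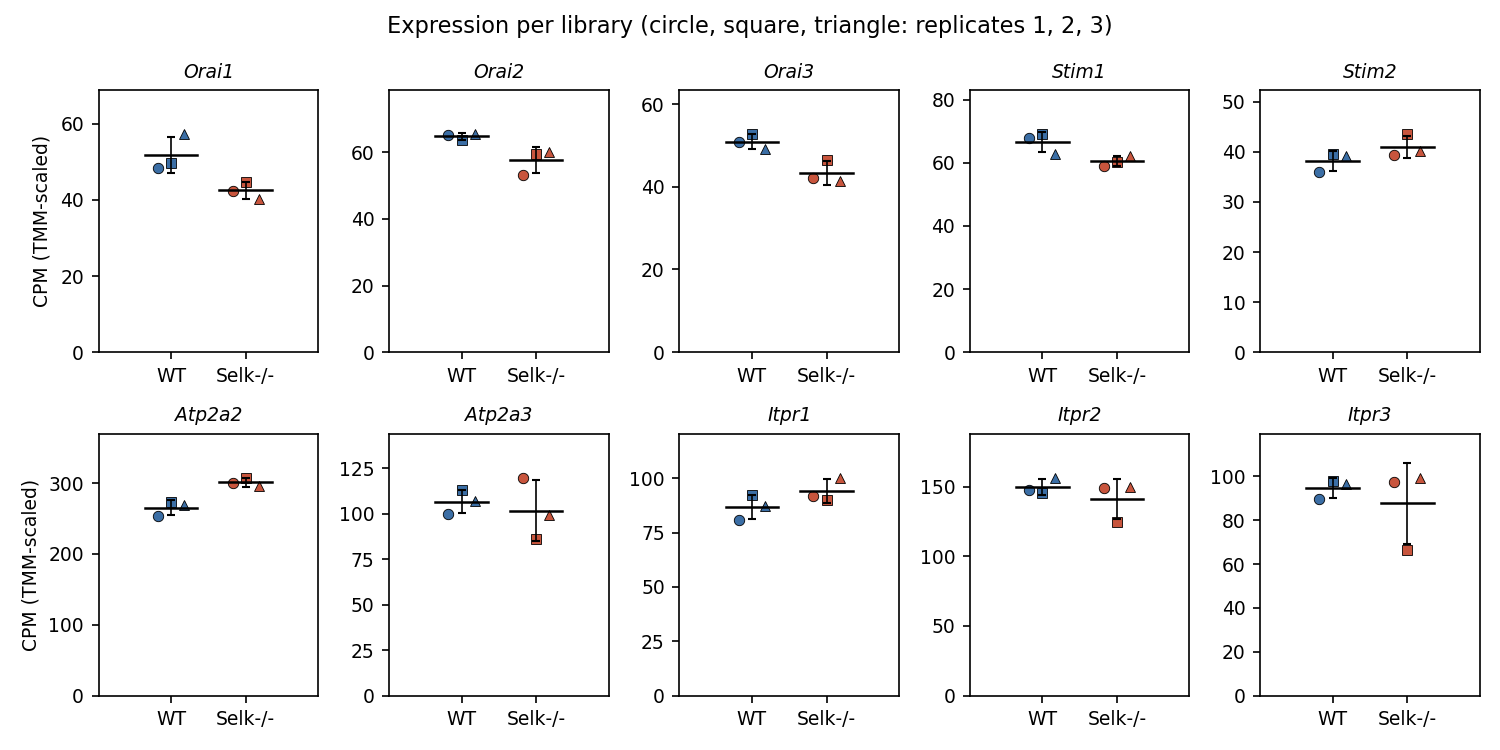
CPM of each of the 10 genes per library from a zero baseline, with group mean and SD (n = 3). The 3 ORAI genes and Stim1 are lower and Atp2a2 is higher in every library labelled Selk-/- than in any WT library. Of all genes tested, 13.7% were lower and 12.5% higher in this way. Replicate 2 labelled Selk-/- (square) is the lowest library for Itpr2, Itpr3 and Atp2a3.

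STIM1 and STIM2 span the endoplasmic reticulum membrane and sense its calcium, STIM1 after strong depletion and STIM2 after small changes. Stim1 (ENSMUSG00000030987, chromosome 7, 101917013 to 102086526, plus strand) had 67.9, 69.1 and 62.9 CPM in WT and 59.0, 60.3 and 62.2 CPM under the Selk-/- label. The groups did not overlap, but the closest libraries, both replicate 3, were less than 1 CPM apart. In log2 the difference was -0.14 (SE 0.0657, 95% interval -0.29 to 0.01, edgeR adjusted p = 0.295, unadjusted p = 0.0658). It was -0.21 with the trend of counts on gene length removed (edgeR adjusted p = 0.176) and -0.11 without WT replicate 2 (edgeR adjusted p = 0.529).

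Stim2 (ENSMUSG00000039156, chromosome 5, 54155841 to 54278399, plus strand) had 35.9, 39.7 and 39.1 CPM in WT and 39.4, 43.5 and 40.1 CPM under the Selk-/- label, so the groups overlapped. Its log2 fold change was 0.10 (SE 0.0763; edgeR adjusted p = 0.497). With the 2 genes on opposite sides of WT, the Stim1 to Stim2 ratio of FPKM was 2.47, 2.301 and 2.27 in WT and 2.01, 1.82 and 2.05 under the Selk-/- label. These ratios did not overlap, and they were given no test because they combine members. The pair was seen to lie on opposite sides of WT, which favours a separated ratio. The FPKM ratios of Stim1 to Orai1, of Atp2a2 to Atp2a3 and of Orai1 to Orai2 overlapped between groups.

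Of the pumps, Atp2a2 was higher under the Selk-/- label. Atp2a2 (ENSMUSG00000029467, chromosome 5, 122591576 to 122640288, minus strand) had 253, 273 and 269 CPM in WT and 300.4, 308 and 295 CPM under the Selk-/- label. No library crossed the gap between 273 and 295 CPM. The means were 265 ± 10.6 and 301 ± 6.26 CPM (SD, n = 3 each), 1.14 times the WT level, with a log2 fold change of 0.18 (SE 0.0674, 95% interval 0.03 to 0.34). This missed the edgeR threshold (adjusted p = 0.209; unadjusted p = 0.0274) and that of DESeq2 (adjusted p = 0.0592).

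Atp2a3, which encodes SERCA3, a pump of blood and endothelial cells among others (ENSMUSG00000020788, chromosome 11, 72851995 to 72883870, plus strand), had 100.2, 113 and 107 CPM in WT and 120.0, 86.3 and 99.4 CPM under the Selk-/- label. Both the highest and the lowest library carried the Selk-/- label. The log2 fold change was -0.07 (SE 0.12, edgeR adjusted p = 0.787) and turned to 0.056 without replicate 2 labelled Selk-/- (edgeR adjusted p = 0.831). When blocked on the snoRNA split it was 0.17 (edgeR adjusted p = 0.669), an estimate that rests on replicate 1 labelled Selk-/-. The highest library, replicate 1 labelled Selk-/-, also had the highest summed endothelial markers, at 4886 CPM against 3148 to 3916 CPM in the other 5 libraries. The part of these cells in the Atp2a3 values was not tested. Summed pump FPKM over summed ORAI FPKM was 1.07 to 1.15 in WT and 1.28 to 1.54 under the Selk-/- label. This is a description of the opposite positions of Atp2a2 and the ORAI genes. Pump over IP3 receptor FPKM was 2.32 to 2.42 in WT and 2.44 to 2.84 under the Selk-/- label. The groups were thus barely apart, the highest value was in replicate 2 labelled Selk-/-, and this ratio was not tested. IP3 receptor over ORAI FPKM overlapped between groups, at 0.443 to 0.477 in WT and 0.450 to 0.608 under the Selk-/- label.

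The IP3 receptor genes did not differ beyond the spread between libraries. These are the release channels of the store, of which ITPR1 is best known from neurons, and ITPR2 and ITPR3 from glia and from epithelial and blood cells. Itpr1 (ENSMUSG00000030102, chromosome 6, 108190057 to 108528070, plus strand) had 80.9, 92.1 and 87.2 CPM in WT and 91.9, 89.9 and 100.3 CPM under the Selk-/- label, with a log2 fold change of 0.12 (SE 0.0759, 95% interval -0.06 to 0.29; edgeR adjusted p = 0.438). Only replicate 3 labelled Selk-/- lay above the WT range. With the trend of counts on gene length removed, the log2 fold change of Itpr1 was 0.0038 (edgeR adjusted p = 0.984).

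Itpr2 (ENSMUSG00000030287, chromosome 6, 146009797 to 146403721, minus strand) had 147, 146 and 156 CPM in WT and 149, 125 and 150.1 CPM under the Selk-/- label, a log2 fold change of -0.08 (SE 0.0888, 95% interval -0.29 to 0.12; edgeR adjusted p = 0.634). Itpr3 (ENSMUSG00000042644, chromosome 17, 27276278 to 27341197, plus strand) had 89.6, 97.8 and 96.7 CPM in WT and 97.5, 66.4 and 99.5 CPM under the Selk-/- label, a log2 fold change of -0.11 (SE 0.151, 95% interval -0.47 to 0.25; edgeR adjusted p = 0.722). Replicate 2 labelled Selk-/- was the lowest of the 6 libraries for both genes. Without it the log2 fold changes were 0.015 for Itpr2 and 0.073 for Itpr3 (edgeR adjusted p = 0.940 and 0.650). That library held 6017 CPM of summed neutrophil markers, against 422 to 1204 CPM in the other 5. Its summed monocyte and dendritic cell markers were at 624 CPM, against 114 to 191 CPM, and Chil3 alone was at 399.6 CPM of this. Ly6c2, Ccr2, Plac8 and Vcan were also highest in that library, whereas Flt3, Cd209a, Xcr1 and Clec9a were not. All 10 neutrophil and all 9 monocyte and dendritic cell markers were detected in every library, and the part of these cells in the Itpr2 and Itpr3 values was not tested.

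**Figure D3:**
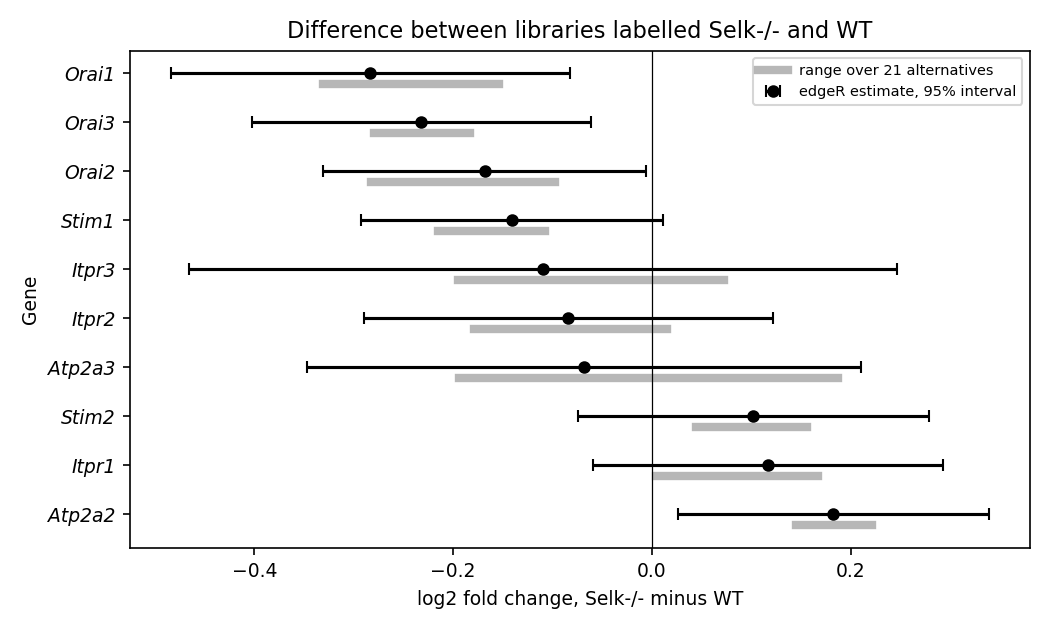
edgeR log2 fold change of each gene (points) with its 95% interval (black bars), and the range of its estimates over 21 alternative settings (grey bars). The intervals of Orai1, Orai2, Orai3 and Atp2a2 exclude 0, the intervals of the other 6 genes include it, and the grey bars of Itpr2, Itpr3 and Atp2a3 cross 0.

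Across the 10 genes, 0 passed an adjusted p of 0.05 in edgeR, where 0% of all genes did, and 0 in DESeq2, where 5.95% did. At an unadjusted edgeR p under 0.05, 3 members were lower, against 9.74% of all genes tested, and 1 was higher, against 9.34%. Groups did not overlap for 4 lower members, where 13.7% of all genes were lower without overlap, and for 1 higher member, where 12.5% were higher without overlap. In total 7 members were below WT, against 51.3% of all genes, and the median log2 fold change was -0.10, against -0.01 over all genes. With 10 genes these counts do not set the family apart. The differences were small: the largest, that of Orai1, was 0.28 in size on the log2 scale.

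The summed microglia markers were also lower under the Selk-/- label, and their part in the ORAI and Stim1 values was not tested. All 10 of those markers were below WT (median -0.25 in log2), against 51.3% of all genes, and 0 of them passed the edgeR threshold. At an unadjusted edgeR p under 0.05 were 6 markers, against 19.1% of all genes, and DESeq2 called 4, against 5.95%. The sum of these markers averaged 24889 ± 260 CPM in WT and 21005 ± 602 CPM under the Selk-/- label (SD, n = 3 each). Dividing by that sum multiplies all genes of a library by 1 factor, which is larger for each library labelled Selk-/-, and on the resulting scale 41.9% of all genes tested were higher without overlap and 1.88% lower. The members' positions on it are given as values only. Per 1000 CPM of the sum, Orai1 was at 1.97, 1.98 and 2.30 in WT and 1.99, 2.21 and 1.89 under the Selk-/- label, so its groups overlapped. Orai2 was at 2.66, 2.53 and 2.62 in WT and 2.49, 2.94 and 2.82 under the Selk-/- label. Orai3 was at 2.06, 2.101 and 1.97 against 1.97, 2.29 and 1.94, and Stim1 at 2.76, 2.75 and 2.52 against 2.76, 2.97 and 2.91. The groups of these 4 genes overlapped on this scale.

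Atp2a2 was at 10.3, 10.9 and 10.8 per 1000 CPM of microglia markers in WT and 14.1, 15.1 and 13.8 under the Selk-/- label, a ratio of means of 1.35. Itpr1 (3.29 to 3.67 against 4.30 to 4.701) and Stim2 (1.46 to 1.58 against 1.85 to 2.14) were also higher without overlap on this scale, 3 members in all beside the 41.9% of all genes, and the remaining 7 members overlapped. This scaling was chosen after the values were seen and has no test. The markers are themselves genes of resting microglia, so a lower content of microglia and a lower level of these markers per cell cannot be told apart.

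**Figure D4:**
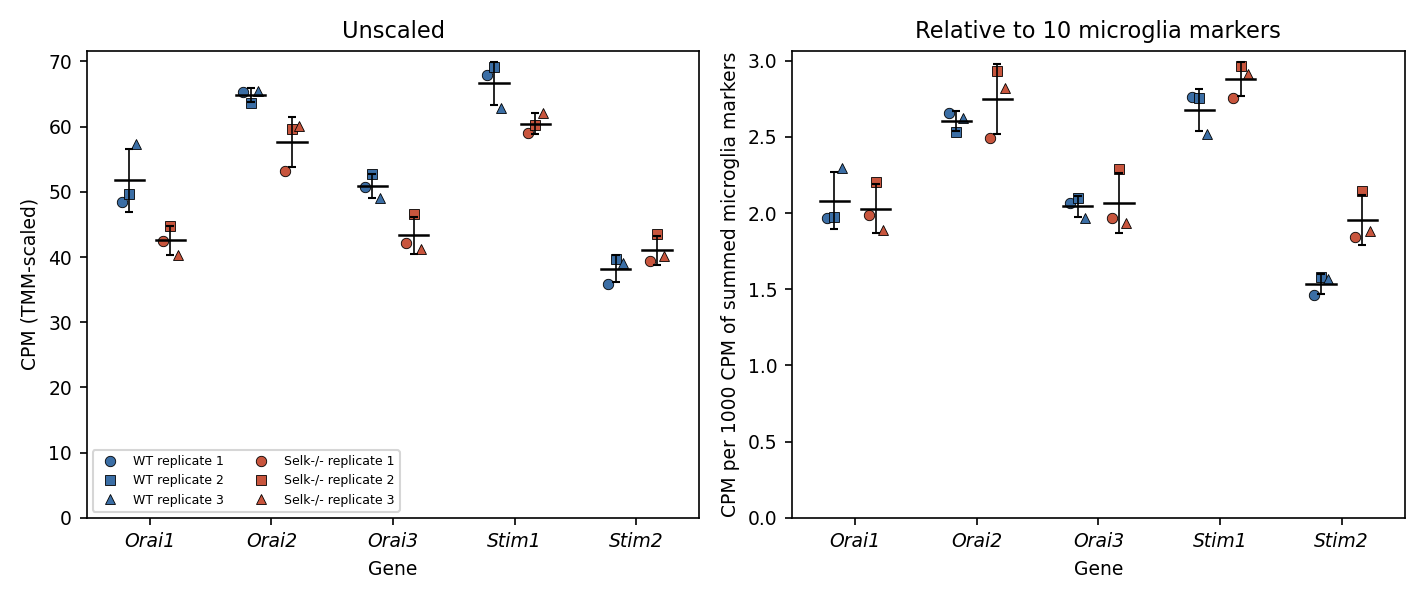
CPM of the ORAI and STIM genes per library (left) and the same values per 1000 CPM of the summed 10 microglia markers (right), with group mean and SD (n = 3). The divisor is lower in every library labelled Selk-/-, so all red points move up relative to blue ones from left to right, and the groups of Orai1, Orai2, Orai3 and Stim1 are apart on the left and overlap on the right.

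Border macrophage and B cell marker sums were also lower without overlap, at 787 to 1150 CPM in WT against 357 to 723 CPM, and 234 to 264 CPM against 200.1 to 206 CPM under the Selk-/- label. All 11 border macrophage and all 7 B cell markers were detected in every library, and their part in the ORAI and STIM values was not tested. The other 11 marker sums overlapped between groups.

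The rest of the pathway was described through 11 gene lists that hold 143 different genes, of which 132 could be tested. As many of these were above WT as below it (66 each), 0 passed the edgeR threshold, and 31 (23.5%) had an unadjusted p under 0.05, against 19.1% of all genes. DESeq2 called 8 of them (6.06%), a share near the 5.95% it called of all genes. Beside the 2 most abundant genes of each list, those named below were chosen after their values were seen.

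Upstream, Tyrobp and Trem2, an adaptor and a lipid receptor that signal through the kinase SYK and phospholipase C gamma, were the most abundant genes. Tyrobp was at a log2 fold change of -0.09 and Trem2 at -0.41 (799 ± 68.6 to 601 ± 14.4 CPM, SD, n = 3 each; edgeR adjusted p = 0.106), the latter called by DESeq2 (adjusted p = 2.7e-04). Of the 12 upstream genes, 4 were lower at an unadjusted edgeR p under 0.05, against 9.74% of all genes, and 0 higher, against 9.34%. Among the 4 was the nucleotide receptor P2ry6 (-0.202, edgeR adjusted p = 0.180). Of the 12 phospholipase genes, 3 were higher and 0 lower by that measure, beside the same shares of all genes. The lists were not tested as sets. The median of the phospholipase list was -0.12. Plcg2, the phospholipase of TREM2 signalling, was at -0.17 and Plcg1 at 0.19. In the list of IP3 removal and inositol phosphate genes, Itpkb, an IP3 kinase, was at -0.07. The same list holds Inpp4b, a phosphatase that acts on inositol lipids and not on IP3 itself, which was at 0.35 (92.5 ± 9.301 to 118 ± 2.21 CPM, SD, n = 3 each; edgeR adjusted p = 0.111), called by DESeq2 (adjusted p = 0.0068).

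Partners of the IP3 receptors were evenly divided, with 9 above and 9 below WT. Of the 18 tested, 3 were lower without overlap, where 13.7% of all genes were, and 2 were higher without overlap, where 12.5% were. These shares are near those of all genes. Tmbim6 and Grina, membrane proteins linked to endoplasmic reticulum calcium leak and release, were the most abundant and lay at -0.12 and 0.105. Zdhhc6, which encodes DHHC6, was at 0.14 (edgeR adjusted p = 0.427). Erlin2 and Rnf170, which encode a subunit of a membrane scaffold and the ubiquitin ligase it holds for removing activated IP3 receptors, were both lower without overlap. Erlin2 was at -0.19 (89.8 ± 0.772 to 78.9 ± 4.12 CPM, SD, n = 3 each; edgeR adjusted p = 0.183) and Rnf170 at -0.31 (21.8 ± 1.81 to 17.6 ± 0.198 CPM, SD, n = 3 each; edgeR adjusted p = 0.147), so neither passed. Erlin1, which encodes the other subunit of that scaffold, lay on the opposite side, at 0.14 and higher without overlap (41.1 ± 1.12 to 45.2 ± 2.498 CPM, SD, n = 3 each; edgeR adjusted p = 0.337).

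Of 12 regulators of store-operated entry, 8 were below WT, against 51.3% of all genes, with a median of -0.09. Ppib, a luminal isomerase, was at -0.09. Saraf, which limits entry by turning off STIM proteins, was at -0.01 (332 ± 14.1 and 329 ± 11.4 CPM, SD, n = 3 each; edgeR adjusted p = 0.950). Stimate, which encodes a protein that promotes STIM activation at membrane contacts, was at -0.18 (edgeR adjusted p = 0.331), and Esyt2, a tether of those contacts, was at 0.302 (edgeR adjusted p = 0.189). TRPC channel genes were few and low. Trpc1 averaged 1.101 FPKM and lay at 0.37 (edgeR adjusted p = 0.259).

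Calcium-binding proteins inside the store had the largest positive list median among lists with at least 9 genes tested, at 0.14. In this list 11 of 15 were above WT, and 5 were higher and 2 lower at an unadjusted edgeR p under 0.05. Of all genes, 51.3% were below WT, and 9.34% were higher and 9.74% lower at that p. Hspa5, a chaperone that also holds calcium, was at 0.59 (edgeR adjusted p = 0.108), and Calr, the main luminal calcium buffer, at 0.12 (806 ± 46.02 to 875 ± 37.9 CPM, SD, n = 3 each; edgeR adjusted p = 0.436). DESeq2, which called 5.95% of all genes, called 3 of this list, each higher. These were Hspa5, Hsp90b1 (0.41) and the reticulum protein Calu (0.21, DESeq2 adjusted p = 0.0124). Atp2a2 thus lay on the same side of WT as most luminal calcium-binding genes, and Rcn3 and Nucb1 lay on the other, at -0.297 and -0.17. Tmco1, a leak channel of an overfilled store, and Tmx1, a redox regulator of SERCA, lay at 0.07 and 0.18.

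Genes that clear calcium from the cytosol held 0 members with an unadjusted edgeR p under 0.05 among 9 tested, against 19.1% of all genes. DESeq2 called 0 of them, against 5.95%. Atp2c1, a Golgi pump, was at 0.12 and Atp2b1, a plasma membrane pump, at 0.18. In mitochondrial uptake, Vdac2 and Vdac3, outer membrane channels, were at -0.09 and -0.02. Smdt1, which encodes the EMRE subunit of the uniporter, was at -0.35 (43.9 ± 2.95 to 34.3 ± 2.85 CPM, SD, n = 3 each; edgeR adjusted p = 0.123) and was called by DESeq2 (adjusted p = 0.0313). Downstream of entry, the calmodulin gene Calm2 was at 0.11. Camk1, a calmodulin-dependent kinase, was at -0.304 (262 ± 14.8 to 213 ± 3.89 CPM, SD, n = 3 each; edgeR adjusted p = 0.1102; DESeq2 adjusted p = 0.0038), and Nfat5, an NFAT relative that is not controlled by calcineurin, at 0.29 (edgeR adjusted p = 0.133; DESeq2 adjusted p = 0.0279). Nfatc2 and Rcan3, a calcineurin target and a calcineurin regulator, were at -0.24 and -0.25 and passed in neither test.

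**Figure D5:**
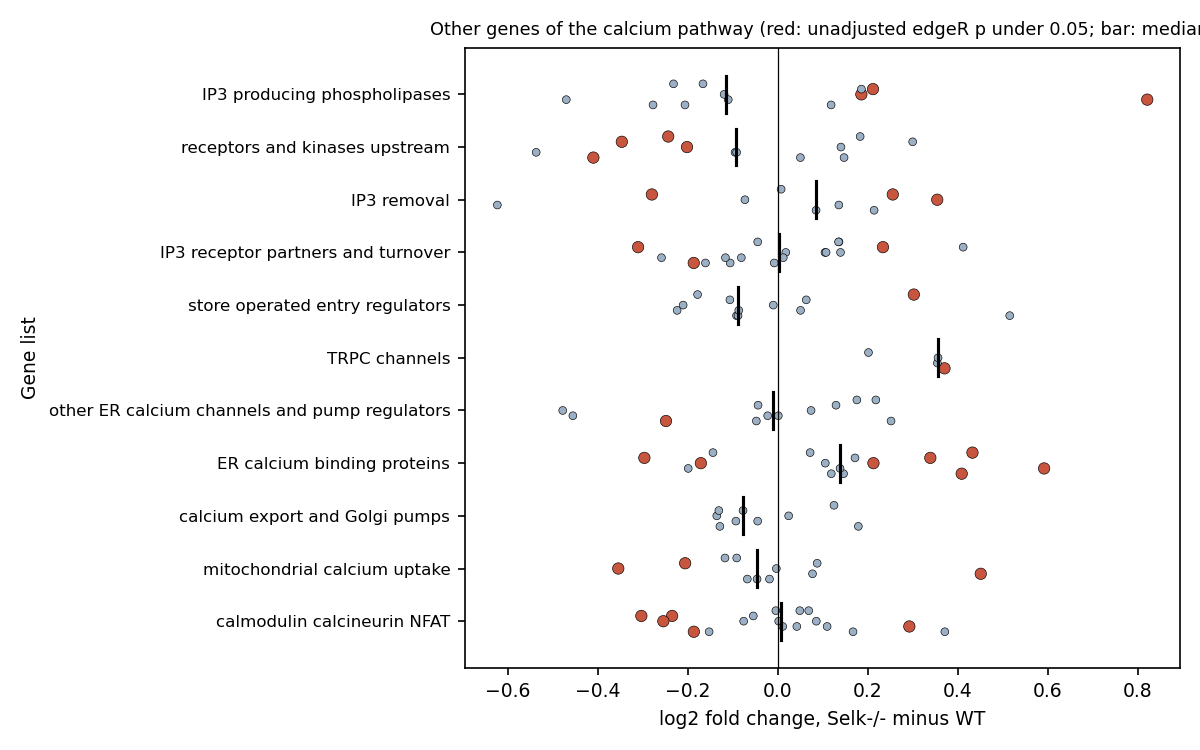
edgeR log2 fold changes of the tested genes of 11 pathway lists; red points have an unadjusted p under 0.05 and vertical bars are list medians. List medians run from -0.12 for phospholipases to 0.36 for the 4 TRPC channel genes tested, and 0 genes passed the adjusted edgeR threshold.

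Among 10033 other genes with a mean of at least 10 CPM, those with the profile over the 6 libraries most like that of Atp2a2 were Osmr, Slc30a4 and Crk, with root mean square differences of 0.0645, 0.0853 and 0.0941 between profiles scaled to unit SD. The cytokine receptor gene Osmr had 27.9, 46.4 and 38.6 CPM in WT and 81.5, 100.9 and 73.5 CPM under the Selk-/- label, so a like profile came with a much larger difference. For Orai1, the member with the smallest p, they were Cyb5b, Hk3 and Ptpro, with differences of 0.122, 0.125 and 0.138. With 6 libraries many genes come this close, and the likeness is given as a description.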

How the data were processed

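Gene expression in 3 WT and 3 Selk-/- libraries was read from a table of raw counts and FPKM that the authors deposited. Per the labels' protocols, reads were aligned with Hisat2 2.0.5 and genes quantified with stringtie 2.2.0, and the authors tested with DESeq2 1.20.0. Per the submitters' processing notes, Bowtie 0.12.2 with builds mm8 and mm9 was used, which contradicts this. The table names no build, so its positions are not comparable with the GRCm38.p6 promoter positions. Strand handling is not stated in the sources at hand, so reads of overlapping genes cannot be told apart. Genes overlapping the members reached at most 1.79 CPM. The deposited counts were tested over all genes with edgeR 4.0.16 in R 4.3.3 (filterByExpr, TMM, robust quasi-likelihood F test, Benjamini-Hochberg adjustment at 0.05, two-sided, no covariate). CPM use TMM-scaled totals. Levels between genes use the deposited FPKM, whose gene lengths are not known here. DESeq2 1.42.0 and limma 3.58.1 were alternatives. The edgeR and DESeq2 steps were tested on simulated data. No library was a duplicate: within groups, the chi-square between pairs per degree of freedom was 14.8 to 48.3. A count of 0 allows up to 3 counts, or 0.107 to 0.142 CPM. Named genes are the 10 members, the 2 most abundant of each list, any gene past the threshold, and the 3 nearest profiles of 2 members; not every gene this takes is reported here. Members and lists were chosen with earlier results of these data known.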

Additional observations from a re-analysis of the deposited data

How the results depend on the processing

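Under 21 alternatives, 0 of the 10 genes passed an adjusted p of 0.05, and 202 of 210 estimates kept their direction. The exceptions were Itpr2 (0.015), Itpr3 (0.073) and Atp2a3 (0.056) without replicate 2 labelled Selk-/-, Itpr3 (0.041) and Atp2a3 (0.17) with the snoRNA split as a block, and Itpr2 (0.015), Itpr3 (0.061) and Atp2a3 (0.19) without both libraries low in snoRNA, an alternative chosen after seeing the data that leaves 1 library labelled Selk-/-, assumed to vary like WT. The estimates with the snoRNA block rest on that same library, so the 2 alternatives are not independent. The cause of the reversals was not tested. Over all alternatives, log2 fold changes ranged from -0.33 to -0.15 for Orai1, -0.28 to -0.10 for Orai2, -0.28 to -0.18 for Orai3, -0.21 to -0.11 for Stim1, 0.04 to 0.16 for Stim2, 0.15 to 0.22 for Atp2a2 and 0.0038 to 0.17 for Itpr1. Leaving out single libraries gave -0.11 to 0.015 for Itpr2, -0.19 to 0.073 for Itpr3 and -0.19 to 0.056 for Atp2a3. The members with an unadjusted p under 0.05 numbered 4 in the main fit, 3 with DESeq2 and 5 in each limma fit on log2 FPKM. They numbered 1 to 4 when each library was left out (1 without replicate 3 and 2 without replicate 1 labelled Selk-/-, 2 without WT replicate 1 or 2). They numbered 2 with the snoRNA block and 0 without both libraries titled with 2 numbers. Pathway genes past the adjusted threshold numbered 8 with DESeq2 and 0 otherwise. Of all genes, 92 passed with at least 10 CPM in 3 libraries, 1056 with DESeq2, and 0 to 59 across single left-out libraries (59 without replicate 1 and 1 without replicate 2 labelled Selk-/-). Across groups, titles share the number 3 (WT replicate 1, replicate 3 labelled Selk-/-, which carries 2 numbers) and 6 (replicate 2 of each group), and the labels tie neither to a shared animal or day. Deviations from the group means correlated at 0.189 and -0.344 across 10034 genes. With that number as a replicate block, a fit to these 4 libraries chosen after seeing the data, 1 member had an unadjusted p under 0.05 (Orai3, -0.23), and 19 of all genes passed, against 0 members and 29 genes in the same libraries without the block.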
